A study of Mus musculus with 48 samples.

Results

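The interval between the last major D segment and the first VH segment in mouse Igh, the immunoglobulin heavy chain locus, was examined in 25 junction libraries. Its members are the junctions on chromosome 12 (build mm9) whose prey, the DNA found joined to a JH segment, lay beyond Ighd1-1 and before Ighv2-1, the first annotated VH gene. From chr12:114720424-114766265, which ends at the last annotated D segment, only plus-strand junctions were taken. From chr12:114766266-114812452 junctions on both strands were taken. The choice used position and strand and no measured difference between groups. In all, 43867 junctions qualified, of 10275487 in the full lists and of 8636489 in the D region, the interval and the VH region together, or 0.508% of the latter. The D-side part (45842 bp) held 35735 of them and the VH-side part (46187 bp) held 8132. The D region outside the interval held 7986806 junctions and the VH region 605816.

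The libraries were made by LAM-HTGTS, in which a primer at a bait segment, here the JH segments, is extended by linear amplification and sequenced across each joint. The series, of 48 samples, used it to ask how RAG scanning along the chromosome and cohesin-driven contraction of Igh serve V(D)J recombination. Bone marrow (BM) pro-B cells of C57BL/6, RAG1 deficient mice gave the 3 libraries used here (WT BM), and cells of the same background with an Igh inversion gave 4 (INV BM). They were taken on anti-B220 beads and cultured with SCF (2 ng/mL) and IL-7 (10 ng/mL). Where the inversion starts and ends, and how RAG1 was supplied to these cells, is not in the labels. WT BM replicate 4 was not analysed here, because the list at hand for it is not of the same kind as the full lists. The other 18 libraries came from v-Abl transformed pro-B lines, 3 for each of 6 groups, all with OsTIR1 and Emu-Bcl2, RAG1 deficient and infected with a RAG1/2 retrovirus. OsTIR1 is the plant receptor through which auxin (IAA) destroys a degron-tagged protein, the Emu-driven Bcl2 transgene keeps arrested cells alive, and STI-571 is the Abl kinase inhibitor that arrests them. Primary Untreated, Wapl-degron Untreated and Wapl-degron single Igh Untreated cells had 3 uM STI-571 for 4 days. Wapl-degron IAADox, Wapl-degron single Igh IAADox and Wapl-degron single Igh INV IAADox cells had STI-571 for 1 day and then STI-571 with 150 uM IAA and 2 mg/mL doxycycline (Dox) for 3 days. The inversion of the last group stands in its titles and not in its genotype label. No label says whether a line was 1 clone, or whether replicates came from separate mice or cultures, so p-values measure the spread between these libraries, which may be technical.

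RAG cuts beside a recombination signal sequence, which consists of a heptamer, a spacer of 12 or 23 bases and a nonamer, and joins signals with unequal spacers. It first joins a D to a JH segment and then a VH to the joined D and JH. RAG bound at the JH segments is thought to reach distant signals as cohesin extrudes chromatin past it, and Wapl is the factor that unloads cohesin from DNA. The interval holds IGCR1, an intergenic control region whose CTCF-binding elements are known to hold back this scanning at the D segments until D-to-JH joining is done. It also holds Adam6a and Adam6b, genes with a role in male fertility. The sources used here give no coordinates for IGCR1, and no junction was assigned to it.

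The mm9 annotation placed Ighd1-1 at chr12:114720381-114720403, Adam6b at chr12:114727756-114730229, Ighd3-1 at chr12:114763524-114763540, Ighd5-1 at chr12:114765011-114765020, a D segment listed only as Gm16968 at chr12:114766243-114766265, and Adam6a at chr12:114782119-114784625. Ighv2-1 starts at 114812453. RefSeq's gene order for GRCm38.p6 has the same order and 1 further gene, Ighv5-1, between Adam6a and Ighv2-1. Junction positions on 1 strand were joined over gaps of up to 20 bp into 99 sites, which are named here by the distance of their most used position from the end of Ighd1-1. Of these, 43 sites held at least 10 junctions, 20 held 1, and 42 were seen in 1 library only. The 4 most used sites held 69.2% of all interval junctions and the 7 most used held 90.2%.

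The DNA at the most used sites is shown because it is what RAG would read as a signal. Each sequence is of mm9, minus strand, the strand of the Igh genes. It begins with 12 bases on the coding side. The 7 bases read as a heptamer and the 9 bases at the better matching spacer are in capitals.
1007-bp site: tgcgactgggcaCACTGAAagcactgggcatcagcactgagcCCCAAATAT
1964-bp site: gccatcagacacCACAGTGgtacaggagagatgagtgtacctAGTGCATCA
3141-bp site: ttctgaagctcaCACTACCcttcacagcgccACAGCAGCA
3494-bp site: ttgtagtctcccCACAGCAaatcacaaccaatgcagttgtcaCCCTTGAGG
3623-bp site: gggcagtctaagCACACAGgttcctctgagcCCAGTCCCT
Ighd3-1 (43121 bp): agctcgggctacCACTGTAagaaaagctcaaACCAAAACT
90735-bp site: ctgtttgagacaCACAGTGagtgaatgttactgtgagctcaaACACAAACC

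Compared with the consensus heptamer CACAGTG and nonamer ACAAAAACC, the 90735-bp site had 7 of 7 heptamer bases and 8 of 9 nonamer bases behind a spacer of 23. The 1964-bp site had the full heptamer, and its nonamers matched at 2 and 3 of 9 bases for spacers of 12 and 23. The 3141-bp site matched at 3 of 7 heptamer bases, the 1007-bp site at 4, and the 3623-bp and 3494-bp sites at 5. The signal of Ighd3-1 that faces JH had 5 of 7 and, behind a spacer of 12, 7 of 9. Of the 7 places shown, only the 90735-bp site and Ighd3-1 thus had a nonamer with at least 7 of 9 bases at either spacer.

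**Figure D1:**
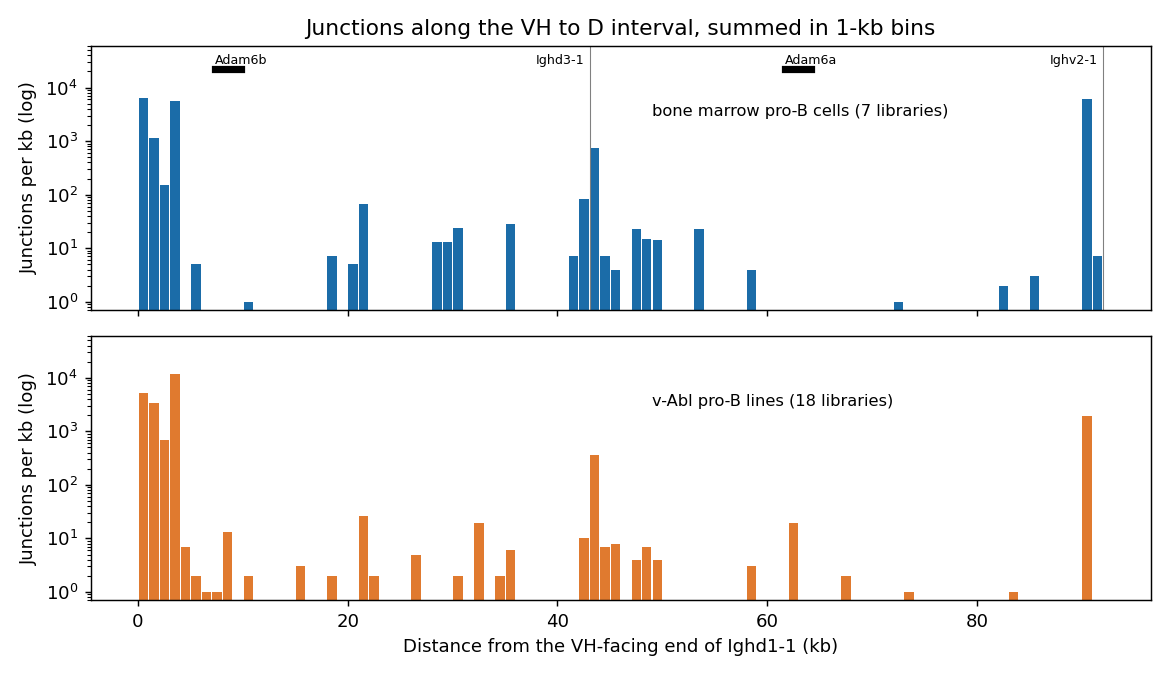
Junctions (log axis) in 1-kb bins against distance from the VH-facing end of Ighd1-1, summed over 7 bone marrow libraries (top) and 18 v-Abl line libraries (bottom); bars mark Adam6b and Adam6a and lines mark Ighd3-1 and Ighv2-1. Junctions pile up in the first 4 kb and in 1 bin near Ighv2-1 with a smaller bin at Ighd3-1, and 52 of 93 bins are empty over all libraries.

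Junctions were spread very unevenly over the interval. The first 4 kb beyond Ighd1-1 held 34266 of them (78.1%), or 8567 per kb. The next 39075 bp, up to Ighd3-1 and including Adam6b, held 355 (0.809%), or 9.09 per kb, and these came from only 111 distinct junctions. The 2767 bp from Ighd3-1 to the last D segment held 1114. From there to 2.5 kb before Ighv2-1, a stretch of 43687 bp that includes Adam6a, 126 junctions were found. The last 2.5 kb held 8006 (18.3%). Adam6b itself held 14 junctions, 7 of them distinct, and Adam6a held 19 lines that came down to 2 distinct junctions.

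This unevenness was present in every group, with a shift in weight between the ends. The first 4 kb held 74.9% ± 3.32 (SD, n = 3) of interval junctions in WT BM and 60.1% ± 2.59 (n = 4) in INV BM. In the 3 untreated line groups it held 90.3% to 90.8%. With IAADox the mean was 82.2% ± 3.33 (n = 3) in the Wapl-degron line and 74.2% ± 8.06 (n = 3) in the single Igh line, but 87.8% ± 10.6 (n = 3) in single Igh INV IAADox.

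**Figure D2:**
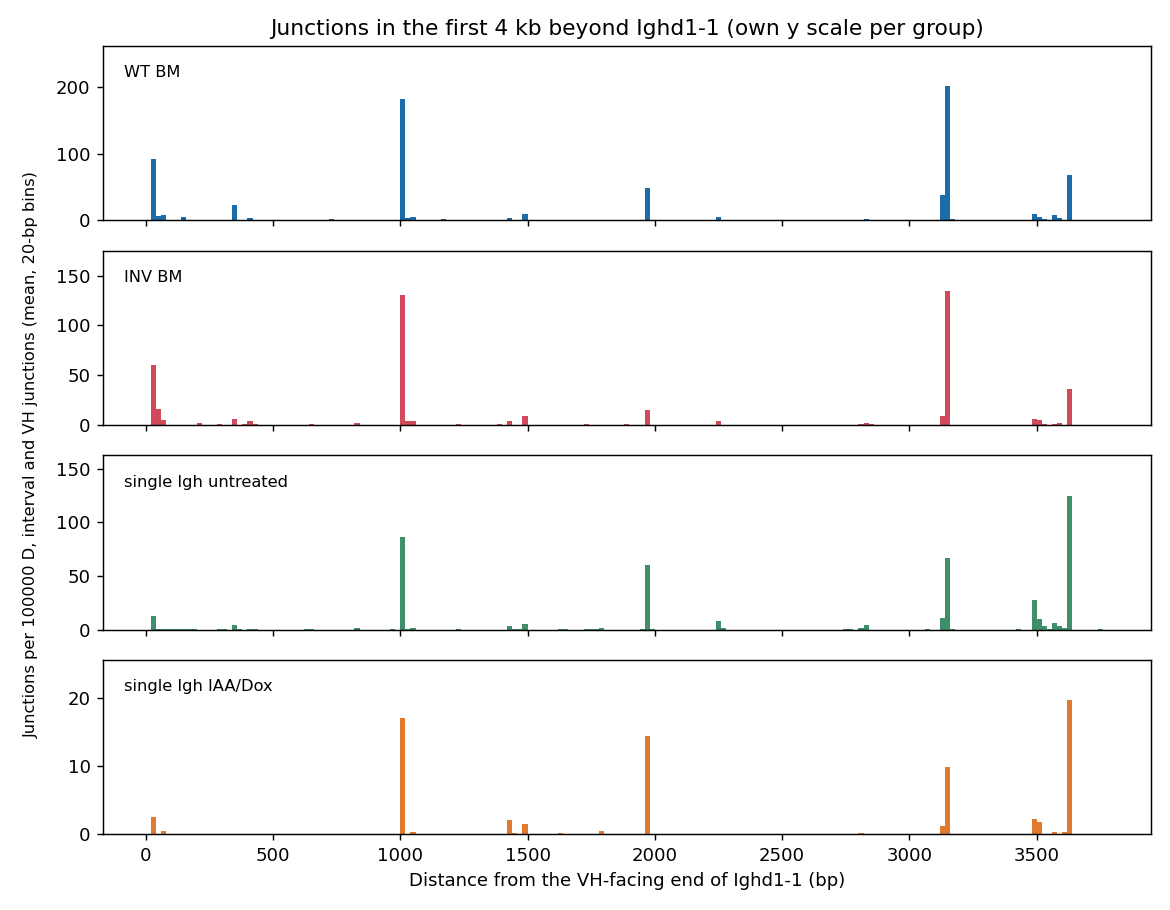
Mean junctions per 100000 D, interval and VH junctions in 20-bp bins over the first 4 kb beyond Ighd1-1 for WT BM (3 libraries), INV BM (4), single Igh untreated (3) and single Igh IAA/Dox (3), each on its own linear scale. Peaks at 1007, 1964, 3141 and 3623 bp appear in all 4 groups, at different relative heights and at a lower level with IAA/Dox.

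Most of the junctions lay next to a CAC, the first letters of a heptamer, in the orientation that leaves the prey as the coding end. Within 5 bp of such a CAC lay 80.2% of interval junctions, and 83.0% when each distinct junction was counted once. Of all positions in the interval 8.49% are that close to one. VH junctions gave 87.9%, against 7.96% of VH positions. Outside the 8 most used sites the share was still 73.6%, and in the near-empty stretch between 4 kb and Ighd3-1 it was 66.5% of the 355 junctions and 74.8% of the 111 distinct ones. The width matters to the value, since 28.8% were at the exact position and 87.5% within 10 bp.

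Where a CAC was used depended on its place. In the first 4 kb 38 of 103 CACs (36.9%) had at least 10 junctions within 5 bp. In the last 2.5 kb 2 of 45 did, and in the rest of the interval 18 of 1320 (1.36%). Among CACs with at least 6 heptamer bases, 9 of 11 were used in the first 4 kb and 9 of 97 in the middle. The full heptamer CACAGTG occurs 16 times in this orientation in the interval. Of these, 8 had no junction within 5 bp, and the copies with most were those of the 90735-bp site with 6401 and the 1964-bp site with 3108.

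The 90735-bp site, near the VH end of the interval, held the most junctions when all libraries were summed, and the DNA beside it resembles a VH gene although the mm9 annotation names none there. It spans chr12:114811135-114811180, 1315 bp before Ighv2-1, and held 7906 junctions (18.02%), 1699 of them distinct, in 24 of 25 libraries. INV BM alone gave 4646 of these junctions, another site was the most used in each of the 6 line groups, and by distinct junctions the 3623-bp, 1007-bp and 3141-bp sites were above it (3216, 2629 and 2292). It is the 1 CAC of the interval with at least 6 heptamer bases and a nonamer of at least 7 of 9 bases at a spacer of 23, the spacer of VH signals. Of its junctions, 34.2% were at the first coding base beside the heptamer and 81.0% within 5 bp of it. The 280 bases on its coding side matched Ighv5-9 at 255 bases (91.1%), Ighv5-4 and Ighv5-6 at 254 and Ighv5-2 at 235 (83.9%). For 7 other sites of the interval the best match to any annotated VH gene was 31.8% to 33.9%. RefSeq lists Ighv5-1 between Adam6a and Ighv2-1, and whether the site is Ighv5-1 was not tested, because the tables used here give no mm9 position for that gene.

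The DNA beyond its nonamer is shown because it holds a match to the core of the CTCF motif, as does Ighv5-2, the first VH gene of the same family named in mm9. The motif searched was CCNNNAGNNGGC, on both strands. Both windows are mm9, minus strand, with heptamer, nonamer and CTCF core match in capitals, and they lie at chr12:114811063-114811149 and chr12:114816640-114816726.
90735-bp site: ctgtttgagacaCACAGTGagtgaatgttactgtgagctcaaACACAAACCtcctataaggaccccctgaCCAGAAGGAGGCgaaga
Ighv5-2: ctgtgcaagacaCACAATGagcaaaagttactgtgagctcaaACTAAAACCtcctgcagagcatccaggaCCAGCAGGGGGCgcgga

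In both windows 19 bp separate the nonamer from the CTCF match. At Ighv2-2 the gap is 21 bp, and Ighv2-1 has no match in the 150 bp on its D side. Such a match lies in those 150 bp for 25 of 112 annotated VH genes (22.3%), and 1.52% of 150-bp windows of chromosome 12 hold one. The interval holds 6 matches. The one shown above had 7995 junctions within 100 bp. One at 3078 bp from Ighd1-1, next to the 3141-bp site, had 7551, and the other 4 had 0. The match at 3078 bp is printed in capitals with its flanks on the minus strand (chr12:114723471-114723502).
CTCF core match at 3078 bp: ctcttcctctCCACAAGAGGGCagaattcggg

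A match is a description of letters, and CTCF binding was not measured in these libraries. By base count such a match occurs once per 9390 bp of chromosome 12, and 32.9% of its 4-kb windows hold one.

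Use of the 90735-bp site differed between BM cells and the lines, in a direction that depends on the scale. Per 100000 D, interval and VH junctions it gave 186, 236 and 253 in the WT BM libraries. In the INV BM libraries it gave 312, 241, 227 and 217, which overlap the WT BM values. The Primary Untreated libraries had 41.4, 34.6 and 31.3 and the Wapl-degron Untreated libraries 27.1, 31.7 and 28.4. On this scale every line library lay below every BM library. With VH junctions as the library size, and likewise by distinct junctions, the log2 fold change of WT BM against Primary Untreated was negative (-3.02 and -1.49). With IAADox the Wapl-degron libraries gave 15.5, 9.49 and 13.4, and the single Igh libraries 18.2, 18.5 and 11.96 against 46.4, 36.7 and 33.7 untreated. The treated libraries lay below the untreated ones in both lines. Of the single Igh INV IAADox libraries, 1 had no junction at the site and the others had 21.5 and 27.7.

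The 1007-bp, 3141-bp and 3623-bp sites of the first 4 kb were each used in all 25 libraries. The 1007-bp site (chr12:114721369-114721465, 7496 junctions) gave 143, 210 and 218 per 100000 in WT BM and 136, 148, 135 and 133 in INV BM. It gave 69.7, 67.4 and 67.1 in Primary Untreated. Between 57.5 and 68.8 were found in Wapl-degron Untreated and between 12.7 and 39.2 with IAADox, so the treated libraries lay below the untreated ones. The 3141-bp site (chr12:114723526-114723585, 7550 junctions) ranged from 140 to 297 in WT BM, from 115 to 195 in INV BM and from 46.0 to 70.7 in Primary Untreated.

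The 3623-bp site (chr12:114723978-114724101, 7418 junctions) ranked lower in BM cells than in the untreated lines. Summed over libraries, it was the most used site of the interval in all 3 untreated line groups, with 25.1% to 28.7% of their interval junctions, and it was not among the 3 most used in either BM group. Its level was 146, 129 and 121 per 100000 in Primary Untreated and 57.2, 95.02 and 81.4 in WT BM, so that the 2 groups did not overlap. Summed over libraries, the 90735-bp, the 3141-bp and the 1007-bp sites were the 3 most used in both BM groups. In WT BM the order of the first 2 was not settled, with 1401 and 1367 junctions but means of 225 and 241 per 100000.

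**Figure D3:**
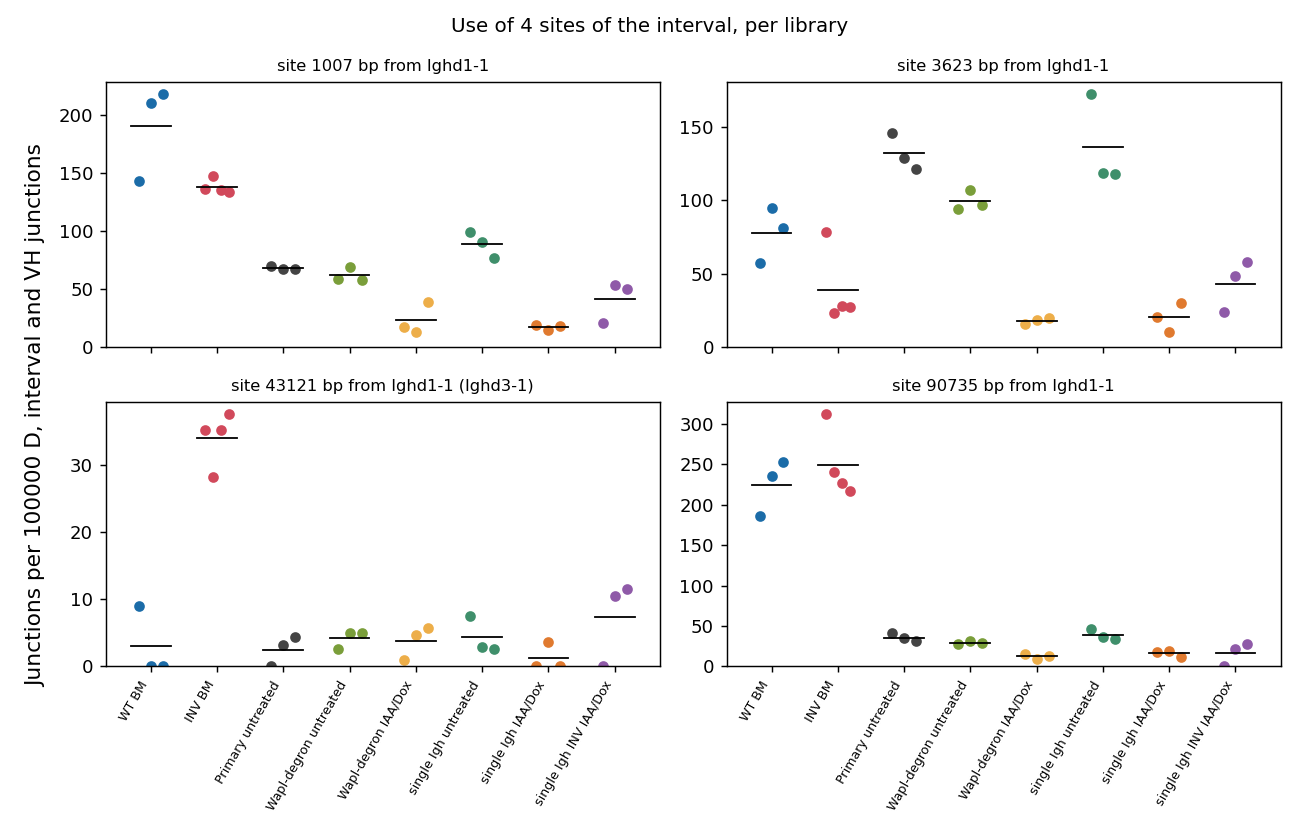
Junctions per 100000 D, interval and VH junctions at 4 sites in each library (points), with the group mean (line), for the 8 groups. On this scale the 1007-bp and 90735-bp sites are highest in the bone marrow groups and the 3623-bp site in the untreated lines, and Ighd3-1 stands between 28.3 and 37.6 in INV BM against at most 11.5 in any other library.

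The D-side edge of the interval needs a separate word. The site at 24 bp (chr12:114720424-114720621, 3582 junctions) begins at the first member base, and 58.5% of it lay within the 28 bases of the VH-facing signal of Ighd1-1 and 89.1% within 50 bp of that segment. A further 34176 plus-strand junctions lay 1 to 20 bp beyond Ighd1-1, just outside the interval, of 4779609 at the segment. At the edge site an insert of at least 10 bases between bait and prey was found in 7.20% of junctions in BM (mean of 7 libraries) and 3.09% in the lines (10 libraries). At the 90735-bp, 3141-bp, 1007-bp, 3623-bp, 1964-bp and 3494-bp sites the means were 71.5% to 90.0% in BM and 33.7% to 51.3% in the lines. Without the edge site, the interval share fell by 0.274 percentage points with IAADox in the Wapl-degron line and by 0.387 in the single Igh line, against 0.298 and 0.400 with it.

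Ighd3-1, an annotated D segment 43121 bp beyond Ighd1-1, was the one annotated gene in the interval with more than scattered use. It held 922 junctions (229 distinct) in 19 libraries, where Ighd5-1 held 13 (8 distinct) and Gm16968 held 12 (7 distinct). In INV BM it gave 35.3, 28.3, 35.3 and 37.6 per 100000, from 27, 23, 24 and 26 distinct junctions. In WT BM it gave 8.96 in 1 library, from 5 distinct junctions, and 0 in the other libraries. The groups did not overlap, and limma voom over all sites gave a log2 fold change of 4.68 (SE 1.04, adjusted p = 0.000505). A count of 0 in both other WT BM libraries makes the fitted size depend on the prior count of the fit. In the lines the site had between 0 and 7.55 per 100000 in untreated libraries and between 0 and 11.5 with IAADox.

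The bases between bait and prey carry a record of what lay between them. They numbered up to 30, which is the largest value in any of the lists. An insert of at least 10 bases was called long, since a D segment already joined to JH would lie there. Of the interval junctions, 64.1% ± 10.6 (n = 3) had a long insert in WT BM and 69.6% ± 2.99 (n = 4) in INV BM, and group means in the lines ran from 29.7% to 47.2%. At Ighd1-1 itself the group means were 3.46% in WT BM, 2.94% in INV BM and 0.151% to 0.344% in the lines. The median insert there was 2 and 3 bases in the BM groups. In the line groups it was -1 or -2, where bait and prey alignments overlap. Inserts thus differed between BM cells and lines at Ighd1-1 too, and what this does to the 10-base cutoff was not tested. The long-insert means of VH junctions were 50.3% to 87.5% and lay above those of the interval in all 8 groups. Between groups, the long-insert share was lower in single Igh INV IAADox (29.7% ± 3.32, n = 3) than in single Igh IAADox (47.2% ± 10.5, n = 3) and lower in Primary Untreated (43.4% ± 7.93, n = 3) than in WT BM, without overlap in either case (exact p = 0.10, the smallest possible, adjusted 0.18). The long-insert means of VH junctions differed in the same directions, at 50.3% against 61.3% and at 73.1% against 87.5%. These directions were thus not particular to the interval. In the other 4 comparisons of the interval's long-insert share the groups overlapped. By site the long-insert share also differed between BM cells and the lines. At the 90735-bp site its mean over libraries with at least 10 junctions was 79.0% in BM (7 libraries) and 51.3% in the lines (17 libraries), and at Ighd3-1 23.04% (5) and 1.76% (9).

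D segments were searched in the long inserts by matches of at least 8 bases. Pooled over all libraries, such a match was found in 81.2% of long interval inserts and 79.5% of long VH inserts. The reverse complement of the D segments gave 13.4% and 13.7%. Groups weigh unequally in these pooled values. Within groups the interval lay below the VH region (74.7% against 77.4% in WT BM, 91.8% against 95.8% in Primary Untreated). The exception was single Igh INV IAADox (97.8% against 94.9%). The segments that mattered are shown on the plus strand, wholly in capitals, as Ighd1-1 and 1 member of the Ighd2 family.
Ighd1-1: GTAGCTACTACCGTAGTAATAAA
Ighd2-3: GTAGTAACCATCATAGA

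Inserts of interval and VH junctions carried the same D segments in different proportions. Ighd1-1, the D segment next to the interval, was the D of 10.4% of D-bearing inserts in the interval and of 44.9% in the VH region, and the Ighd2 family was that of 81.4% and 49.1%. The Ighd1-1 share was lower in the interval than in the VH region of the same library in 25 of 25 libraries, with a mean difference of -40.9 percentage points (SD 16.3). This difference was noticed in the values and is given as a description. The Ighd1-1 share ran from 0% to 37.3% (median 10.2%) in the interval and from 27.97% to 76.7% (median 54.7%) in the VH region.

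Within the interval the Ighd1-1 share differed by site. At the 90735-bp site it ran from 6.73% to 10.9% in WT BM, from 12.5% to 25.2% in INV BM and from 13.1% to 66.7% in the line libraries with at least 10 D-bearing inserts there. Over the first 4 kb it ran from 0% to 12.5%. In the 20 libraries with at least 10 D-bearing inserts at the 90735-bp site, its Ighd1-1 share was above that of the first 4 kb in 20 and below that of VH junctions in 18. Ighd4-1, the D segment nearest JH, made up 5.60% of D-bearing inserts in the interval and 2.87% in the VH region, and its share was higher in the interval in 7 of 8 groups.

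**Figure D4:**
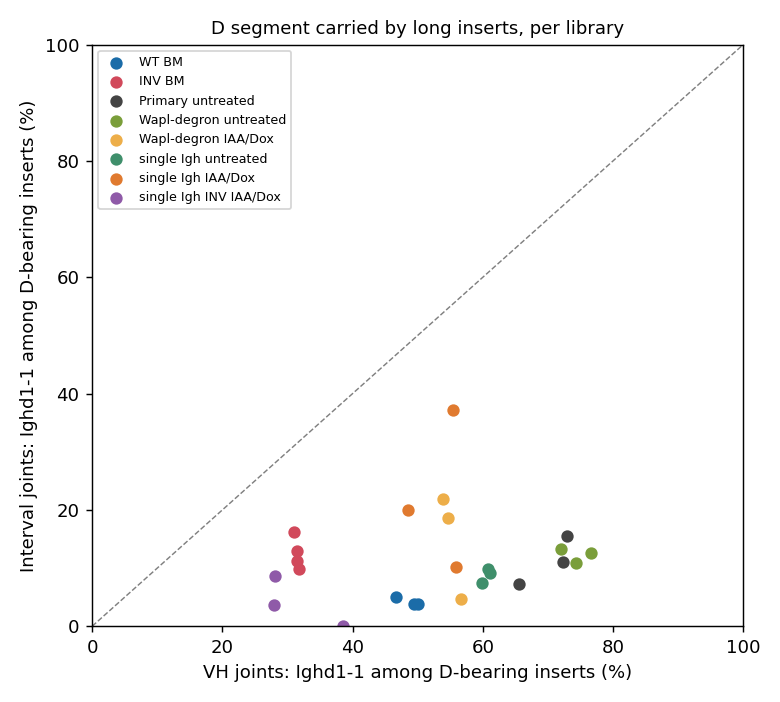
Percent of D-bearing long inserts that carry Ighd1-1 in each library (points, coloured by group), for interval junctions (y) against VH junctions (x), with the line of equality dashed. All 25 libraries lie below the line, and the highest interval value is 37.3%.

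The share of the interval among D, interval and VH junctions was compared between groups. In each library it was computed from 58563 to 849259 such junctions. It was 0.701%, 1.05% and 1.16% in the WT BM libraries and 1.03%, 0.688%, 0.714% and 0.668% in INV BM, and the 2 groups overlapped. In Primary Untreated it was 0.429%, 0.455% and 0.444%, and in Wapl-degron Untreated 0.405%, 0.408% and 0.395%. With IAADox the Wapl-degron libraries had 0.0807%, 0.0886% and 0.145%. The single Igh libraries had 0.587%, 0.475% and 0.441% untreated and 0.117%, 0.0779% and 0.108% with IAADox, and 0.0990%, 0.241% and 0.248% were found in single Igh INV IAADox. Every IAADox library thus lay below every untreated library of the lines.

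**Figure D5:**
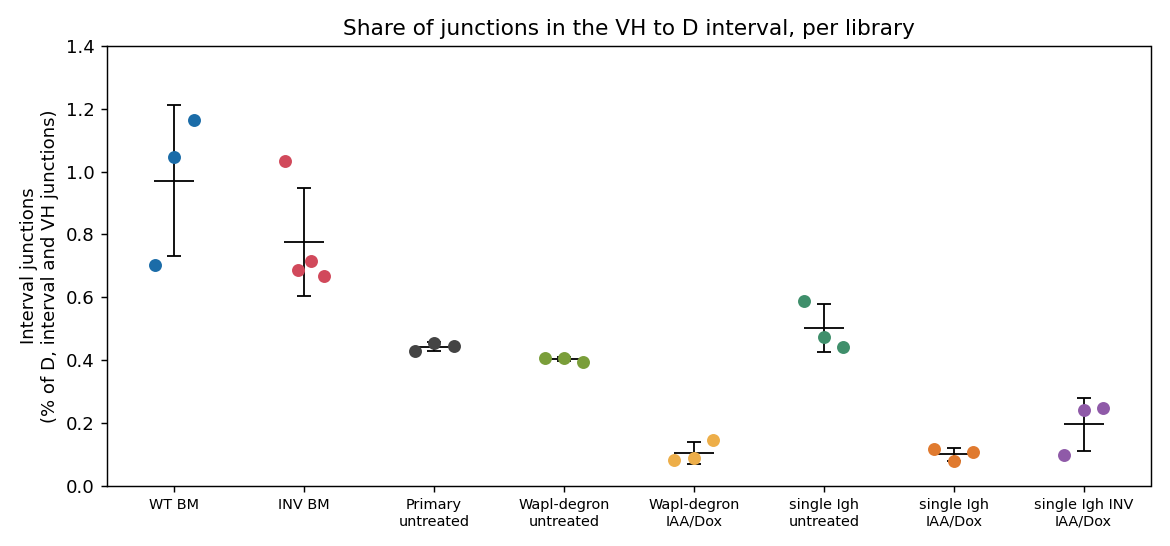
Interval junctions as a percent of D, interval and VH junctions in each library (points) of the 8 groups, with the mean and SD (bars); the axis starts at 0. The bone marrow libraries sit between 0.668% and 1.16%, the untreated lines between 0.395% and 0.587%, and the IAA/Dox libraries between 0.0779% and 0.248%.

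IAADox treatment went with a lower share in both Wapl-degron lines. The mean was 0.105% ± 0.0353 (n = 3) with IAADox and 0.403% ± 0.00682 (n = 3) without in the Wapl-degron line, 3.84-fold lower. In the single Igh line it was 0.101% ± 0.0204 (n = 3) and 0.501% ± 0.0765 (n = 3), 4.97-fold lower. By distinct junctions the shares were 0.682% against 6.71% and 0.751% against 7.41%, a larger ratio in both lines. Separate joints that agree in position, strand, bait end and insert length count as 1 distinct junction. A distinct share can thus also depend on library depth, which was not tested. Wapl-degron Untreated libraries held 228637 to 849259 D, interval and VH junctions and Wapl-degron IAADox libraries 102865 to 189693. Each comparison had p = 0.10 by a two-sided exact permutation test, the smallest that 3 against 3 libraries allow, and 0.18 after adjustment over 18 tests, none of which could pass 0.05. The log2 ratios of the lines were -1.99 and -2.32, and an exact permutation test of their difference gave p = 0.37. Each group's libraries also differed in bait: single Igh Untreated replicate 1 had JH2 bait only, and in single Igh IAADox replicates 1 and 3 JH1 made up 82.5% and 81.2% of junctions. Wapl-degron Untreated replicate 1 had no JH2 bait and 59.0% JH1. Among JH1-bait junctions the means were 0.0715% (n = 3) against 0.224% (n = 2) in the single Igh line and 0.101% (n = 3) against 0.209% (n = 3) in the Wapl-degron line, where the treated libraries (0.0438% to 0.201%) overlapped the untreated ones (0.195% to 0.228%). Among JH2-bait junctions they were 0.243% against 0.542% and 0.0889% against 0.457%. Each line had 1 sequencing run that held both treatments. Within it the values were 0.0886% (1 library) against 0.403% (3) in the Wapl-degron line (run 8) and 0.0928% (2) against 0.475% (1) in the single Igh line (run 9). In that treated Wapl-degron library, replicate 2, 28.4% of lines repeated a read name.

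In every treated library the VH-side part held a larger share of the interval than in every untreated library of its line. The VH-side part held 13.3% ± 5.21 (n = 3) of the interval with IAADox and 7.62% ± 0.491 (n = 3) without in the Wapl-degron line, and 17.8% ± 5.89 (n = 3) and 7.93% ± 0.258 (n = 3) in the single Igh line. The groups did not overlap in either line (exact p = 0.10, the smallest possible, adjusted 0.18). These treated shares rest on 16, 18 and 15 VH-side junctions in the Wapl-degron line and 18, 35 and 13 in the single Igh line. The 95% Wilson intervals of Wapl-degron IAADox replicates 2 (6.89% to 16.3%) and 3 (6.07% to 15.6%) included untreated values. So did that of single Igh IAADox replicate 3 (7.17% to 19.5%), and those of the other treated libraries lay above them. Within the shared run of each line the values were 10.7% against 7.62% and 17.9% against 8.20%. Without the 90735-bp site the differences were -0.189 and 0.924 percentage points.

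Set against VH junctions, the groups fell into a different order. There were 33.3 to 50.4 interval junctions per 100 VH junctions in the untreated line libraries and 1.60 to 2.68 with IAADox. The single Igh INV IAADox libraries had 40.3 to 46.2. WT BM libraries had 1.46 to 2.28 and INV BM libraries 7.44 to 7.93.

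In bone marrow the direction of the interval share with the inversion depended on the scale. The mean interval share was 0.776% ± 0.172 (n = 4) in INV BM. In WT BM it was 0.971% ± 0.241 (n = 3). The groups overlapped (p = 0.171 by the exact permutation test, adjusted 0.257). Within sequencing run 1 the INV BM library was higher (1.03% against 0.701%, 1 library each), and within run 5 the INV BM libraries were lower (0.690%, 3 libraries, against 1.11%, 2). Counting each distinct junction once turned the difference to 0.754 percentage points higher in INV BM, and taking all junctions as the denominator turned it to 0.344 points higher. VH junctions made up a mean of 49.8% of D, interval and VH junctions in WT BM and 10.0% in INV BM. Of D and interval junctions alone, the interval held 1.35%, 2.11% and 2.38% in the WT BM libraries. In INV BM it held 1.19%, 0.757%, 0.785% and 0.734% of them, so on that scale all INV BM libraries were lower. The position within the interval also differed. Of interval junctions in INV BM, the VH-side part held 33.3% ± 2.28 (n = 4), and of those in WT BM it held 23.6% ± 2.66 (n = 3). All 4 INV BM libraries lay above all 3 WT BM libraries, with p = 0.0571, the smallest the exact test allows, and 0.18 adjusted. In run 5 the values were 33.99% and 22.1%, in run 1 31.1% and 26.7%. Without the 90735-bp site the difference was 1.20 percentage points.

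The inverted single Igh line, compared with the single Igh line under the same IAADox treatment, had a mean interval share of 0.196% ± 0.0839 (n = 3) against 0.101% ± 0.0204 (n = 3), with exact p = 0.30 (adjusted 0.36) and overlapping groups. By distinct junctions (1.96% against 0.751%), without the 90735-bp site (0.179% against 0.0846%) and with JH1 bait (0.134% against 0.0715%) the groups did not overlap, with exact p = 0.10 each, the smallest possible. With JH1 bait the gap was small, from 0.0977% to 0.0990%. The groups overlapped with JH2 bait (0.306%, n = 2, against 0.243%, n = 3) and with JH4 bait (0.209%, n = 2, against 0.161%, n = 3). Within the shared run the shares were 0.170% (2 libraries) and 0.117% (1). The VH-side part held 7.73% ± 6.81 (n = 3) with the inversion against 17.8% ± 5.89 (n = 3), lower where in BM it was higher (exact p = 0.20, adjusted 0.257, overlapping groups). By distinct junctions it held 6.39% and 18.9% (exact p = 0.10), and within the run 5.17% and 17.5%. Without the 90735-bp site the direction of this difference turned. For the interval share, the log2 ratios of the inversion in BM and in this line were not separated by an exact permutation test (p = 0.506). Such a test was not run for the VH-side share. Replicate 1 of the inverted line had 58 interval junctions (17 distinct), JH1 bait only and 0 on the VH side. That 0 allows a VH-side share of up to 5.17% if all 58 lines are separate joints. The limit is higher if lines repeat joints.

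The WT BM and Primary Untreated groups share no sequencing run and differ in cell type and treatment, and these cannot be told apart. The interval share was 2.19-fold higher in WT BM (0.971% against 0.443% ± 0.0132, n = 3, exact p = 0.10, adjusted 0.18). The VH-side part of the interval held 23.6% in WT BM and 8.44% ± 1.10 (n = 3) in Primary Untreated. Without the 90735-bp site that difference turned direction. By distinct junctions the difference in interval share, WT BM minus Primary Untreated, was -5.23 percentage points, and by all junctions it was -0.0515. Distinct junctions made up 6.20% to 12.3% of the interval lines in WT BM and 16.5% to 61.9% in Primary Untreated. Wapl-degron Untreated, against Primary Untreated, had 0.403% against 0.443% (exact p = 0.10, adjusted 0.18), and these groups share no run either. By distinct junctions that difference was turned, to 0.654 points higher, and with JH1 bait (n = 3 against n = 2) it was 0.00606 points higher. Bait was uneven in both comparisons with Primary Untreated, whose replicate 1 had 92.3% JH4 and no JH1 or JH3 bait. In Primary Untreated the mean interval share was 0.203% with JH1 bait (n = 2) and 0.685% with JH3 bait (n = 2).

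Single sites were tested with limma voom over all sites of the D region, the interval and the VH region together, where both groups together had 10 junctions or more, and an adjusted p under 0.05 as the call. Since the library size is the sum of these regions, a site is called relative to it. For fits without 1 replicate only the interval sites called were counted, and the share of all sites called was not computed. In the Wapl-degron line 11 of 21 interval sites were lower with IAADox and 0 higher, where of all 203 sites 10.8% were lower and 68% higher. In the single Igh line 12 of 20 were lower and 1 higher, where of all 214 sites 10.7% were lower and 66.4% higher. Median log2 fold changes were -1.52 over the interval sites and 4.05 over all sites in the first line, and -2.19 and 3.86 in the other. The 3623-bp site fell from a mean of 99.2 to 18.03 per 100000 (log2 fold change -2.45, SE 0.32, adjusted p = 1.3e-06) and from 136 to 20.3 (-2.96, SE 0.39, adjusted p = 1.6e-05). The 90735-bp site fell by less, from 29.1 to 12.8 (-1.26, SE 0.38, adjusted p = 0.00506) and from 38.9 to 16.2 (-1.19, SE 0.34, adjusted p = 0.00646). Without Wapl-degron IAADox replicate 2 the 90735-bp site missed the threshold in that line (log2 fold change -0.99, adjusted p = 0.0821). Ighd3-1, at 4.17 against 3.82 and at 4.34 against 1.24, did not pass (adjusted p = 0.611 and 0.219).

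Other sites of the first 4 kb were lower with IAADox, most of those named in both lines. The 1425-bp and 1482-bp sites had means of 3.55 and 2.95 per 100000 in Wapl-degron Untreated and no junction with IAADox (adjusted p = 0.000388 and 0.000978). In the single Igh line the 1425-bp site had 3.90 untreated and 2.31 with IAADox, with overlapping groups (adjusted p = 0.557). The 1482-bp site fell there from 5.68 to 1.47 (adjusted p = 0.00834), a call that was lost without single Igh IAADox replicate 2 (adjusted p = 0.152). The 343-bp site had 2.74 untreated and 3.98 with IAADox in the Wapl-degron line (adjusted p = 0.295). The single Igh libraries had 4.25 untreated and no junction with IAADox (adjusted p = 0.0217), a call that was lost without single Igh Untreated replicate 1 or 2 (adjusted p = 0.0527 and 0.0562). The 1964-bp, 2247-bp, 3494-bp and 2820-bp sites were called lower in both lines. The 1964-bp site, with the full heptamer, fell in the Wapl-degron line from 50.6 to 6.27 (log2 fold change -2.92, SE 0.45, adjusted p = 1.1e-05) and in the single Igh line from 61.0 to 14.4 (adjusted p = 0.000119). In the single Igh line the 2247-bp site had 9.18 untreated and no junction with IAADox (adjusted p = 0.000719). The 3494-bp site fell from 40.6 to 4.11 (log2 fold change -3.77, SE 0.69, adjusted p = 0.000262), and the 2820-bp site had 5.28 and 0.177 (adjusted p = 0.0020). In the Wapl-degron line these 3 sites went from 5.33 to 0.994, from 37.3 to 7.76 and from 4.99 to 0.967 (adjusted p = 0.00338, 9.8e-05 and 0.00336), and the 2820-bp site lost its call there without Wapl-degron IAADox replicate 2 (adjusted p = 0.0951). The 1 site called higher in the single Igh line, 32669 bp from Ighd1-1, consisted of 19 lines and 2 distinct junctions. With the sequencing run as a block, 5 of the 20 sites were called in the single Igh line, all lower, where of all sites 4.67% were lower. In the Wapl-degron line 20 of 21 sites were lower when the library size was the VH junctions (32% of all sites), and by distinct junctions 17 of 18 (26.5%).

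For INV BM against WT BM 2 of 35 interval sites were higher and 0 lower, where of all 475 sites 6.74% were higher and 35.4% lower. The 2 were Ighd3-1 and a site at 42599 bp on the D side of it, with 65 junctions (18 distinct) in INV BM and 0 in WT BM (mean 4.44 per 100000, adjusted p = 0.0108). The 90735-bp site had means of 249 and 225 (log2 fold change 0.25, SE 0.26, adjusted p = 0.464). Without WT BM replicate 1, and likewise without replicate 2, 4 sites were called. With all junctions, VH junctions or distinct junctions in place of the library size, 6, 21 and 6 sites were called, all higher, where of all sites 15.2%, 35.4% and 25.4% were higher.

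For single Igh INV IAADox against single Igh IAADox 5 of 12 interval sites were higher and 0 lower, where of all 204 sites 13.7% were higher and 64.2% lower. The 3 named were the 1482-bp site (6.42 against 1.47 per 100000, log2 fold change 2.91, SE 0.87, adjusted p = 0.0064), the 3141-bp site (36.7 against 11.1, log2 fold change 1.71, SE 0.52, adjusted p = 0.00694) and the 1007-bp site (41.3 against 17.4, log2 fold change 1.21, SE 0.52, adjusted p = 0.0426). Another, at 62500 bp in Adam6a, consisted of 19 lines and 2 distinct junctions. These calls rest on few junctions: without single Igh IAADox replicate 1 there were 3 calls, without its replicate 2 there were 2, and without replicate 2 or 3 of the inverted line 2. Without single Igh IAADox replicate 2 none of the 3 named sites passed (adjusted p = 0.165, 0.0539 and 0.108). The 1007-bp site was also lost without single Igh IAADox replicate 1 or 3 and without replicate 2 or 3 of the inverted line (adjusted p from 0.107 to 0.156). With the sequencing run as a block 1 site was called, and it was lower (58.3% of all sites). With the replicate number as a block there were 7 higher and 1 lower (16.7% and 69.6% of all sites).

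For WT BM against Primary Untreated 5 of 21 interval sites were higher and 2 lower, where of all 312 sites 64.4% were higher and 1.92% lower. The 90735-bp site was 225 against 35.8 per 100000 (log2 fold change 2.62, SE 0.39, adjusted p = 4.8e-06) and the 343-bp site 22.2 against 3.16 (2.43, SE 0.83, adjusted p = 0.0141). The 3141-bp site (241 against 60.8), the 1007-bp site (190 against 68.1) and the edge site (111 against 23.6) were higher too. The 2776-bp site had 0 in WT BM and 2.88 in Primary Untreated (adjusted p = 0.0479), and the 3494-bp site was lower (15.3 against 42.6, adjusted p = 0.0362). The 3623-bp site, at 77.9 against 132, missed the threshold (adjusted p = 0.0613). This direction depends on the scale: with all junctions as the library size 0 sites were higher and 5 lower (41.7% and 3.21% of all sites), with VH junctions 0 and 18 (25% and 19.6%), and by distinct junctions 0 and 16 (62.8% and 18.6%). Without WT BM replicate 3, and likewise without Primary Untreated replicate 3, 4 sites were called. The 2776-bp site lost its call without any 1 of the 6 libraries (adjusted p from 0.0524 to 0.192). The 3494-bp site lost it without WT BM replicate 1 or 3 or Primary Untreated replicate 2 or 3 (adjusted p from 0.0702 to 0.111), and the 343-bp site without WT BM replicate 2 or 3 or Primary Untreated replicate 3 (adjusted p from 0.0581 to 0.106). For Wapl-degron Untreated against Primary Untreated limma voom called 0 of 23 interval sites, and 0% of all 147 sites in either direction. At an unadjusted p under 0.05, 1 interval site was higher and 1 lower, where 4 of all 147 sites had such a p in either direction.

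Minus-strand junctions were members only on the VH side. There were 93 (42 distinct) in 14 libraries, all at 1 site, which lay on the 90735-bp signal. Of these, 36 (38.7%) began at the first base of the heptamer, the end of the signal.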

How the data were processed

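The deposited lists hold 1 junction per line, with the prey's chromosome, position and strand and the alignment ends of bait and prey, per the file headers. In Wapl-degron IAADox replicate 2, 226216 lines held 161891 read names, so 28.4% of its lines repeated a name. In the other libraries at most 0.192% did. These positions carry no normalization, and every count was made here from the authors' deposited lists. Bowtie2 and mm9 are named in the submitters' processing notes. The file headers name filters, duplicates among them, without thresholds. How duplicates were set decides how often 1 joint is listed, so distinct junctions (same library, position, strand, bait end and insert length) were counted as an alternative. Separate joints can share all of these, so distinct counts can depend on library depth. This limit holds for every difference given by distinct junctions. Of the 43867 members, 99.2% matched mm9 at 28 or more of the first 30 prey bases. Groups came from sample titles. Sequencing runs were read from the read names, and each library was given the run with the most of its D, interval and VH junctions. The other samples of the series were not analysed here.

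The interval share is the percent of D, interval and VH junctions in the interval. JH junctions were left out because they made up 5.06% to 87.4% of the WT BM lists. The 3 shares (interval, VH side, long insert) were compared in 6 pairs of groups by two-sided exact permutation tests (Python 3.11.15, pandas 2.3.3, scipy 1.17.1, numpy 2.4.6), and the 18 p-values were adjusted by Benjamini-Hochberg. Site counts entered voom, lmFit and eBayes of limma 3.58.1 in R 4.3.3, adjusted over all sites. The site test was also run on simulated counts, drawn independently and with the same spread setting for all sites. Real libraries repeat joints and some sites vary more, so that run gives no error rate for them. Sequences were read from mm9 with pysam 0.24.0, and VH, D and Adam6 positions from its annotation. Plots used matplotlib 3.10.9.

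Sites named in the text are the 5 most used, the 3 most used in each group, up to 3 with the largest log2 fold change among called sites without overlap in each comparison, and annotated D segments. Other sites are named where a sentence gives their few junctions. The members and lists were chosen with earlier results of these data known. No label pairs the libraries by replicate number. Correlations of deviations over 207 sites were highest for Wapl-degron Untreated and Primary Untreated (0.353, 0.235 and 0.165). For single Igh INV IAADox and single Igh IAADox they were 0.127, 0.0838 and 0.105. The number was taken as a possible pairing for the first of these only, and no cutoff was tested. The alternatives changed the denominator, the site width, the junction minimum, the counting of distinct junctions, the long-insert length, the run or replicate block and 1 replicate at a time. JH1 or JH2 bait alone and the interval without its edge site were added after seeing the data.

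In all, 58563 to 849259 D, interval and VH junctions per library were at hand, and 58 to 7286 members. The libraries carry no molecular identifiers, so the upper limit given for a count of 0 (3 counts) covers counting error only.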

Additional observations from a re-analysis of the deposited data

Results flagged for a closer look

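INV BM replicate 1 stood far from the other INV BM libraries in its interval share, at 1.03% against 0.668% to 0.714%. It is also the 1 INV BM library of sequencing run 1. The same library stood apart at the 3623-bp site, with 78.5 junctions per 100000 against 23.2 to 27.9. INV BM replicate 2 stood apart at the 1007-bp site, with 148 against 133 to 136, a gap that is small in size. Chance alone marks about 1 in 20 groups in this way.

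Outside the members, 695 minus-strand junctions lay between Ighd1-1 and the last D segment, in 21 libraries, and 387 of them (55.7%) lay close to Ighd1-1.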

How the results depend on the processing

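The lower interval share with IAADox kept its direction in both lines under every alternative run. It ran from -0.318 to -0.286 percentage points without 1 replicate in the Wapl-degron line and from -0.430 to -0.357 in the single Igh line. The comparisons of INV BM with WT BM (-0.330 to -0.0987 without 1 replicate), of WT BM with Primary Untreated and of Wapl-degron Untreated with Primary Untreated turned. By distinct junctions these 3 became 0.754, -5.23 and 0.654. By all junctions the first 2 became 0.344 and -0.0515, within sequencing run 1 the first was 0.331, and with JH1 bait the last was 0.00606.

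Without the 90735-bp site the VH-side difference turned to -0.189 points for IAADox in the Wapl-degron line, 0.0231 for the inversion in the single Igh line, 0.0596 for Wapl-degron Untreated and -0.261 for WT BM, each against its control, since that site holds nearly all VH-side junctions. With JH2 bait the Wapl-degron Untreated difference was 2.76. The long-insert difference with IAADox turned to 0.571 with long from 8 bases, 3.22 from 15 bases and 0.572 with JH1 bait in the Wapl-degron line. In the single Igh line it turned to -2.17 by distinct junctions and -4.61 with JH2 bait, and ran from -0.0276 to 9.96 without 1 replicate.

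Scaling to VH junctions shifts D and interval sites together, and called interval sites numbered 21 for INV BM, 20 for IAADox in the Wapl-degron line, 11 for the inversion in the single Igh line and 18 for WT BM against Primary Untreated, where of all sites 35.4%, 32%, 29.9% and 19.6% were called in the same direction. With all junctions there were 6 for INV BM. By distinct junctions there were 6, 17 for the Wapl-degron line and 16 for WT BM against Primary Untreated. With the run as a block there were 5 in the single Igh line, and 1 for its inversion. For WT BM against Primary Untreated, which share no run, the run could enter only as a random block, which does not separate run from group. With it 4 were called, all higher, where of all sites 51.3% were higher. With a minimum of 50 junctions 3 of 7 interval sites were called higher for the inversion in the single Igh line (16.4% of all sites). Without 1 replicate the calls ran from 2 to 4 (INV BM), 9 to 13 (Wapl-degron), 10 to 14 (single Igh), 2 to 7 (its inversion) and 4 to 8 (WT BM against Primary Untreated). The share of all sites called was not computed for these fits. With the replicate number as a block 8 sites were called for the inversion in the single Igh line, and no other count of calls moved by more than 1.5 times. For Wapl-degron Untreated against Primary Untreated, where the numbers may pair the libraries, the blocked share difference was -0.0401 and 0 sites were called.

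For WT BM against Primary Untreated, log2 fold changes with VH junctions as the library size turned to -3.63 (edge site), -3.22 (343 bp), -4.26 (1007 bp), -3.91 (3141 bp) and -3.02 (90735 bp), and by distinct junctions to -2.56, -1.61, -2.69, -2.56 and -1.49. With all junctions the 1007-bp site had -0.124. Ighd3-1, not called there, turned to 0.446 with the run as that random block, 0.559 and 0.316 without WT BM replicates 2 and 3 and 0.118 without Primary Untreated replicate 3 (lowest -2.46, without WT BM replicate 1). In the Wapl-degron line it turned to 0.110 with the run as a block and 0.268 without IAADox replicate 1 (lowest -0.634, without IAADox replicate 3). The 90735-bp site, not called for the inversion in the single Igh line, turned to 3.46 with VH junctions, 0.413 by distinct junctions and 0.601 without the inverted replicate 1 (lowest -1.20, without the inverted replicate 3). For Wapl-degron Untreated it turned to 0.0024 by distinct junctions. Of interval junctions, 28.8% lay at a CAC exactly and 87.5% within 10 bp. The cause of these changes was not tested beyond what the settings themselves alter, and the IAADox groups, with 358 and 403 members in all, limit what single sites can show there.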
